A study of Mus musculus with 2 samples.

Results

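Rab GTPases are the largest branch of the small GTPases, and 59 Rab genes were followed here in ribosome profiling of the neonatal mouse brain. Members were all genes whose transcripts carry a name of the form Rab, a number and at most 1 letter from a to d, with at least 1 transcript annotated as protein coding. They were 59 of the 45578 genes in the deposited table and of its 21874 genes with a protein-coding transcript. The samples analysed here form a single group of 2 brains, biological replicates 1 and 2 per the labels, taken at postnatal day 5 on a congenic FVB background. Both animals were of genotype Smn+/-; SMN2tg/0, so they lacked 1 working copy of mouse Smn, carried 1 dose of the human SMN2 transgene, and are labelled as controls. Footprints are the mRNA fragments left inside translating ribosomes after nuclease digestion. They were taken from pooled polysomal fractions and selected at 25 to 35 nucleotides. Brain tissue holds many cell types, so fewer cells of a type and fewer footprints per cell cannot be told apart.

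A Rab protein is a molecular switch. An exchange factor loads it with GTP at a given membrane, and there it recruits effectors such as tethers, motors and fusion regulators. A GTPase-activating protein then returns it to the GDP form, which GDI (GDP dissociation inhibitor) lifts off the membrane. Lipid anchors are added by a geranylgeranyl transferase with the help of an escort protein. Each Rab marks a limited set of membranes, from the endoplasmic reticulum to the synaptic vesicle, and neurons rely on them for axonal transport, receptor recycling and transmitter release.

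Library totals were 1866831 footprints in replicate 1 and 5261878 in replicate 2, so values of replicate 2 carry less counting error. Rab genes took 9552 footprints, or 0.512% (Clopper-Pearson 95% interval 0.501 to 0.522), in replicate 1 and 25501, or 0.485% (0.479 to 0.491), in replicate 2. The mean share was 0.498% ± 0.0191 (SD, n = 2), and the replicate intervals did not overlap. Intervals cover counting error only, since PCR copies are not independent molecules. The brain label was checked against markers. All 5 neuronal, 4 astrocytic and 3 oligodendrocytic markers were read in both libraries, with summed levels of 3862 and 2645, 1018 and 1032, and 364 and 636 CPM (counts scaled to library size). Markers of other cells were read too, at 606 and 311 CPM for choroid plexus, 170 and 156 for microglia, 197 and 152 for endothelium and 1498 and 1055 for red cells. The 4 melanocyte markers summed to 2.68 and 2.85 CPM, with Dct and Mlana at 0. The 3 epithelial markers summed to 12.9 and 19.4 CPM, of which Cdh1 had 8.04 and 15.0. In the liver list Alb was at 0 and Apoa1 at 0.536 and 1.14 CPM.

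Coding sequences of the family are short and alike in length. The longest annotated coding sequence ranged from 585 nucleotides in Rab22a to 888 in Rab26 for 58 of the members, with a median of 648, while Rab44 stood apart at 2178. Across the 50 members with a mean count of at least 10, Spearman's rho between count and coding length was -0.03, a description across genes. Levels are given as coding density, the CPM of a gene divided by the length of its longest coding sequence in kilobases. The median coding density of the 59 members was 65.9, against 6.33 over all genes with a protein-coding transcript. Among members with a mean count of at least 10 it was 75.2, against 23.5 over the 13317 coding genes past the same minimum. Of the 59 members, 48 lay above the median of all coding genes, 19 at or above the 90th percentile and 4 at or above the 99th.

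Footprints were unevenly divided over the family. The 5 members with the highest counts were Rab3a, Rab6a, Rab1, Rab7 and Rab11a, which took 37.8% of Rab footprints in replicate 1 and 38.0% in replicate 2. It took 8 members to hold 50% of the footprints and 29 to hold 90%. Rab3a had the highest coding density, and 45 of the 58 neighbouring pairs in the order of levels had overlapping ranges. Rab3a was clear of the next member, Rab6a, while from Rab6a down to Rab2a each neighbour overlapped the next.

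**Figure D1:**
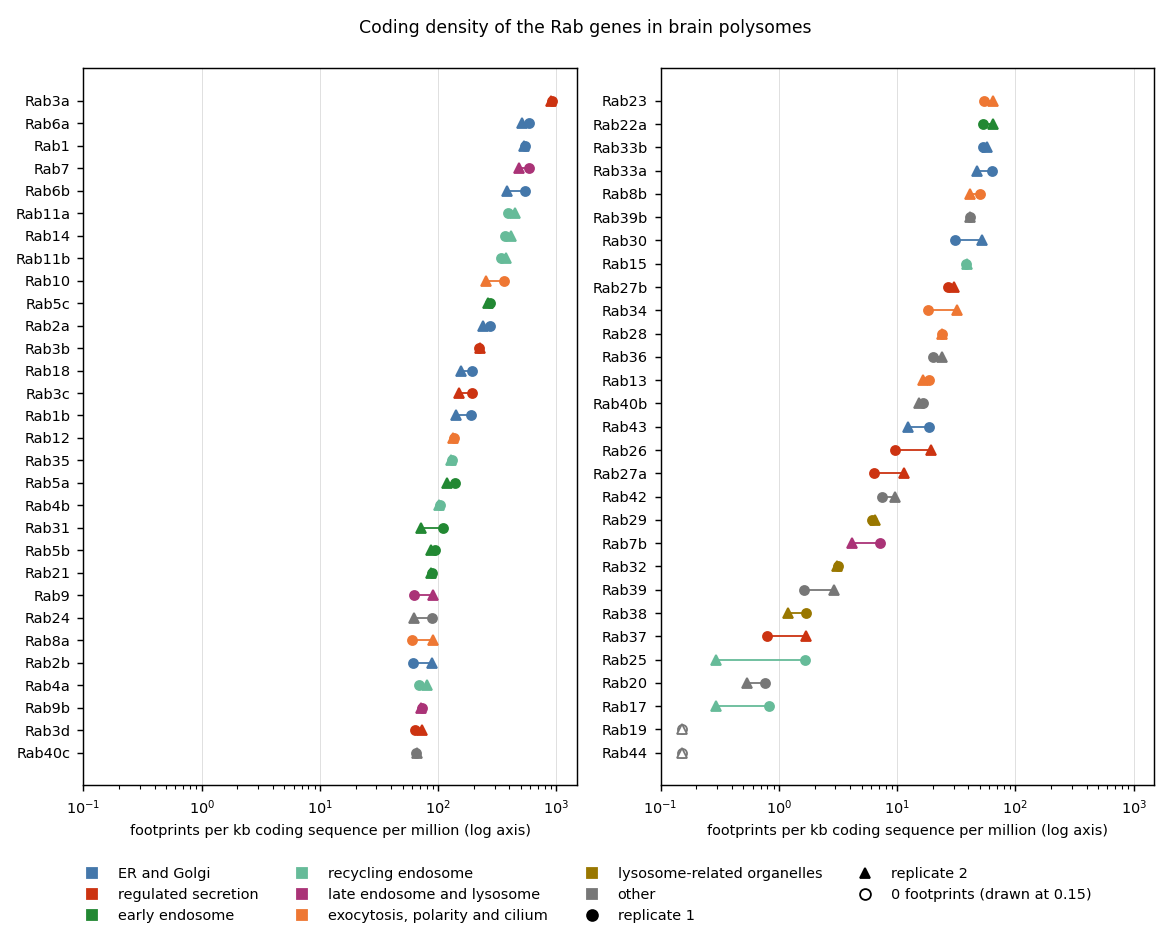
Coding density of the 59 Rab genes in replicate 1 (circles) and replicate 2 (triangles) on a log axis, in order of the mean and coloured by the compartment each Rab is best known for; open symbols mark 0 footprints. Rab3a stands above the other members at 919 and 892, and Rab19 and Rab44 had no footprint in either replicate.

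Rabs of regulated secretion held both the top of the family and some of its lowest members. These 8 genes took 18.9% of Rab footprints in replicate 1 and 19.5% in replicate 2. Rab3a (ENSMUSG00000031840), the synaptic vesicle Rab that acts in transmitter release, was read by 1138 footprints in replicate 1 and by 3112 in replicate 2. The coding density was 919 (Clopper-Pearson 95% interval 867 to 974) and 892 (861 to 924), a mean of 906 ± 19.4 (SD, n = 2), at percentile 99.8 of coding genes. Summed over both libraries this was 19.2 footprints per codon over 221 codons. The intervals of the replicates overlapped, and Rab3a was the highest member in each. These counts are summed over 6 transcripts, and its highest single transcript had fewer footprints than those of Rab6b and Rab10.

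Its relatives were lower. Rab3b had a coding density of 220 in replicate 1 and 226 in replicate 2, and Rab3c had 192 and 150. Rab3d, best known from secretory granules outside the nervous system, had 63.3 and 72.3. The order Rab3a, Rab3b, Rab3c, Rab3d was the same in both libraries. The Rab27 genes, which act in granule and exosome release, were far lower, with 26.9 and 30.1 for Rab27b and 6.43 and 11.4 for Rab27a. Rab26, a Rab of secretory and synaptic vesicles, had 9.65 and 19.3, and Rab37 had 1 and 6 footprints, a coding density of 0.797 and 1.70.

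The 11 Rabs of the endoplasmic reticulum and Golgi took the greatest part of Rab footprints, 31.5% in replicate 1 and 28.8% in replicate 2, with a median coding density of 165. Rab6a (ENSMUSG00000030704), which drives transport at and out of the Golgi, had 587 and 515. Rab6b, its relative known from neurons, had 543 and 382, so it was close to Rab6a in replicate 1 and lower in replicate 2. Rab1 (ENSMUSG00000020149), also called Rab1a, controls transport from the endoplasmic reticulum to the Golgi and had 547 and 536. The range of Rab1 lay within that of Rab6a, so these levels were not ordered beyond their spread.

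The other early secretory Rabs covered a wide span. Rab1b, which shares the step of Rab1, had 188 and 141, and Rab2a, which acts between the same compartments, had 277 and 238. Rab2b had 61.7 and 87.9, and Rab18, a Rab of the endoplasmic reticulum and lipid droplets, had 193 and 155. The other Golgi Rabs lay below Rab18 and Rab1b in both libraries, and Rab33a overlapped Rab2b in range. Rab33a had 63.0 and 47.1, Rab33b had 52.8 and 57.6, Rab30 had 30.6 and 52.2, and Rab43 was lowest at 18.6 and 12.3.

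Early endosome Rabs were led by the Rab5 genes, whose products tether and fuse early endosomes. The 6 members took 9.75% and 9.42% of Rab footprints. Rab5c had a coding density of 274 in replicate 1 and 263 in replicate 2, Rab5a had 139 and 118, and Rab5b had 94.2 and 86.2. This order held in both libraries with no overlap. Rab21 had 88.1 and 86.6, Rab22a had 53.1 and 65.0, and Rab31, which acts between the Golgi and endosomes, had 109 and 71.8.

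Recycling Rabs had 3 members at high levels and 2 near the floor. The 9 genes took 18.2% of Rab footprints in replicate 1 and 21.2% in replicate 2. Rab11a (ENSMUSG00000004771), the main Rab of the slow recycling endosome, had a coding density of 391 and 448. Rab14, which acts between the Golgi and endosomes, had 366 and 416, and Rab11b had 338 and 375. All 3 were higher in replicate 2 by library share, and neighbouring ranges overlapped. Rab35, a Rab of fast recycling and neurite growth, had 130 and 129, and the fast-recycling genes Rab4b and Rab4a had 103 and 102, and 69.3 and 79.8. Rab15 had 38.6 and 39.0.

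Rab17 and Rab25, the recycling Rabs known from epithelia, were nearly absent from the libraries. Rab25 had 2 footprints in replicate 1 and 1 in replicate 2, a coding density of 1.67 (95% interval 0.202 to 6.03) and 0.296 (0.00749 to 1.65). Rab17 had 1 footprint in each, and its intervals overlapped those of Rab25. At this depth the levels of Rab17 and Rab25 could not be ordered.

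Late endosome Rabs were dominated by Rab7. Rab7 (ENSMUSG00000079477), or Rab7a, directs late endosomes to lysosomes and autophagosomes to fusion, and had a coding density of 581 in replicate 1 and 487 in replicate 2. Rab7b, described in cells of the monocyte line, had 8 and 13 footprints, or 7.14 and 4.12. Rab7 was thus 81.4 and 118 times as high as Rab7b. Rab9 and Rab9b, which act in return traffic from late endosomes to the Golgi, had 62.8 and 89.7, and 73.4 and 72.1, and their order changed between the libraries.

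Rabs of exocytosis, polarity and the cilium were led by Rab10, which acts in vesicle delivery to the plasma membrane, including that of growing axons. Rab10 had a coding density of 358 in replicate 1 and 252 in replicate 2. Rab12 had 135 and 133, Rab8a 60.1 and 91.1, and Rab8b 49.8 and 41.4. Rab8a took 54.7% of the summed coding density of this pair in replicate 1, where the counting intervals overlapped, and 68.7% in replicate 2. With protein-coding transcripts alone, scaled to the total on such transcripts, the order turned, with means of 47.4 for Rab8a and 60.3 for Rab8b. All footprints of Rab8b were on a protein-coding transcript, so its higher value there came from the scaling. Rab23, a regulator of Hedgehog signalling at the cilium, had 54.8 and 65.2, Rab34 18.2 and 32.3, Rab28 24.1 and 24.0, and Rab13, known from tight junctions, 18.5 and 16.5.

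The remaining genes ranged from no footprint to a mean of 75.7. Rab32 and Rab38, which build melanosomes and related organelles, had 4 and 11, and 2 and 4 footprints, or mean coding densities of 3.15 and 1.44. Rab29, a partner of the kinase Lrrk2, had a mean of 6.29 ± 0.277. The 10 members outside the compartment groups took 3.38% and 3.33% of Rab footprints, with Rab24, linked to autophagy, highest at 89.3 and 62.1. Rab39b, a gene of X-linked intellectual disability in humans, had 41.7 and 41.1, while its relative Rab39 had 1.64 and 2.91. Rab40c had 65.2 and 66.5, Rab40b 16.6 and 15.2, and Rab36 and Rab42 had means of 22.0 and 8.56. Rab20 had 1 and 2 footprints. Rab19 and Rab44 had 0 in both libraries, which allowed a coding density of up to 2.46 and 0.872 for Rab19 and 0.738 and 0.262 for Rab44, taking 3 counts per library as the limit.

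Within subfamilies, the leading gene was the same in both libraries for 12 of the 14. With protein-coding transcripts alone the lead turned in the Rab4, Rab8 and Rab33 pairs. Scaled to the total on such transcripts, Rab4b had 26.6 and Rab4a 98.8, and Rab33b had 50.9 and Rab33a 72.8. Members of a subfamily share a number and much of their sequence, and the 14 subfamilies held 31 of the 59 genes. Rab7 took 98.8% of the summed coding density of its pair in replicate 1 and 99.2% in replicate 2, and Rab39b took 96.2% and 93.4% of its own. Rab40c took 79.7% and 81.4%, Rab2a 81.8% and 73.0%, Rab27b 80.7% and 72.5%, and Rab1 74.4% and 79.2%. Rab3a took 65.9% and 66.5% of the 4 Rab3 genes, and Rab5c 54.1% and 56.2% of the 3 Rab5 genes. The Rab11 pair was nearly even with all transcripts counted, with 53.7% and 54.5% on Rab11a, and the Rab6 pair had 52.0% and 57.4% on Rab6a. With protein-coding transcripts alone these pairs were less even. Mean coding densities were then 444 for Rab11a and 292 for Rab11b, and 672 for Rab6a and 420 for Rab6b. Lead positions changed in the Rab9 pair, with 46.1% and 55.4% on Rab9, and in the Rab33 pair, with 45.6% and 55.0% on Rab33b. Short fragments may be shared by near-identical genes and their treatment is not given in the sources used here, so the division of close pairs such as Rab1, Rab6 and Rab11 is uncertain to that extent.

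**Figure D2:**
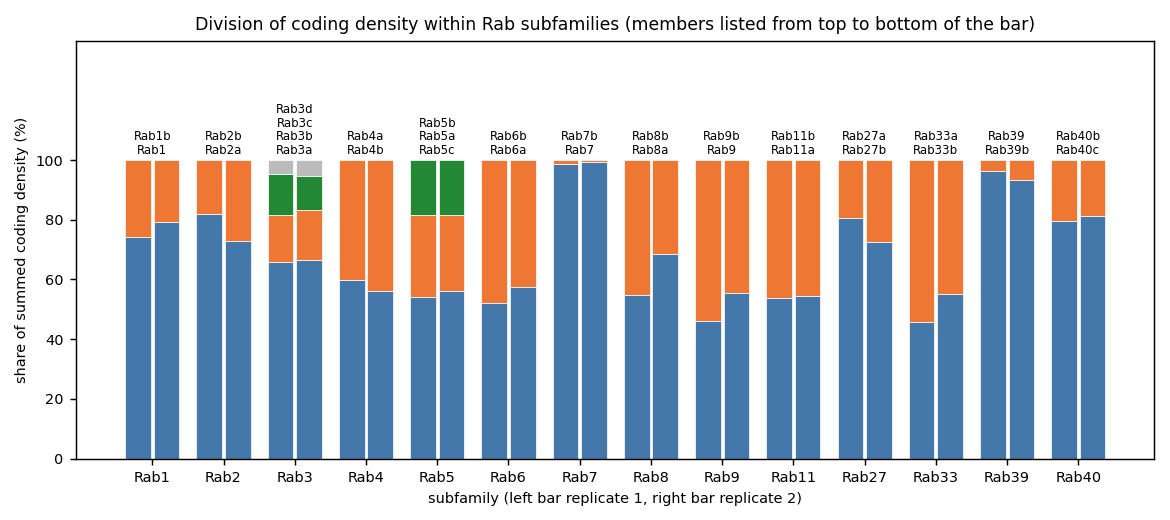
Share of the summed coding density taken by each member of the 14 subfamilies, in percent, with replicate 1 as the left and replicate 2 as the right bar; names above the bars run in the order of the segments. Rab7 and Rab39b take nearly all of their pairs, while Rab11a and Rab11b split theirs at 53.7% and 54.5% on Rab11a. All transcripts of a gene are counted, and with protein-coding transcripts alone the Rab11 pair is less even.

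Isoforms with the same coding length and different 3′ untranslated lengths were set side by side. In each gene the protein-coding transcript with the longest 3′ untranslated region was set against the one with the shortest of the same coding length. Transcripts with no annotated 3′ region, as in Rab9, and pairs with fewer than 20 footprints in all, as in Rab17, were left out, which kept 12 genes. The transcript with the longer region had a median of 1.21 times the total length and 1.06 times the count, from 0.571 times the count in Rab29 to 1.47 times in Rab7. These medians include pairs that hardly differed, such as Rab23 with regions of 3169 and 3172 nucleotides and Rab3d with 2974 and 2993. In Rab3d the transcript with the longer region had 0.987 times the total length. In Rab3b the untranslated region was 375 nucleotides in one transcript and 2511 in the other, and they had 84 and 92 footprints in replicate 1 and 246 and 259 in replicate 2. The Rab2b pair differed 1.85-fold in length and 1.27-fold in count, the Rab27b pair 2.42-fold and 1.41-fold. In Rab7 the longer transcript, 1.69 times as long, had 1.47 times the count. Transcripts of a gene share fragments, and how these were assigned is not given in the sources used here, so these counts are not a measure of isoform use.

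Footprints also fell on transcripts annotated as non-coding. The 59 genes had 218 transcripts, 134 of them protein coding, which took 85.6% of Rab footprints in replicate 1 and 83.5% in replicate 2. Over all genes with a protein-coding transcript this share was 81.1% and 79.5%. Retained introns took 4.38% and 5.13% of Rab footprints, against 9.61% and 10.2% over all these genes, and processed transcripts 7.40% and 8.06%, against 5.47% and 5.88%. No test was made of these differences. Such transcripts share exons with the coding ones, and fragments of those exons can be counted there.

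Members differed widely in this division. In 21 of the 50 members past the count minimum all footprints were on protein-coding transcripts, and in 4 members fewer than 50% were. Among these 21 only Rab13 has an annotated transcript of another class, so for the others the share was fixed by the annotation. Rab4b had 18.5% and 20.6% of its footprints on its only protein-coding transcript, with 23 of 124 in replicate 1 and 71 of 344 in replicate 2, and the rest on 7 others. Rab23 had 38.4% and 34.7%, Rab8a 44.3% and 49.2%, and Rab14 49.4% and 45.4%. Rab35 had 54.4% and 56.1%, with the remainder on 1 transcript annotated for nonsense-mediated decay, at 67 and 180 footprints. When only protein-coding transcripts were counted, Rab3a was still the highest member and 9 of the 10 highest were shared.

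**Figure D3:**
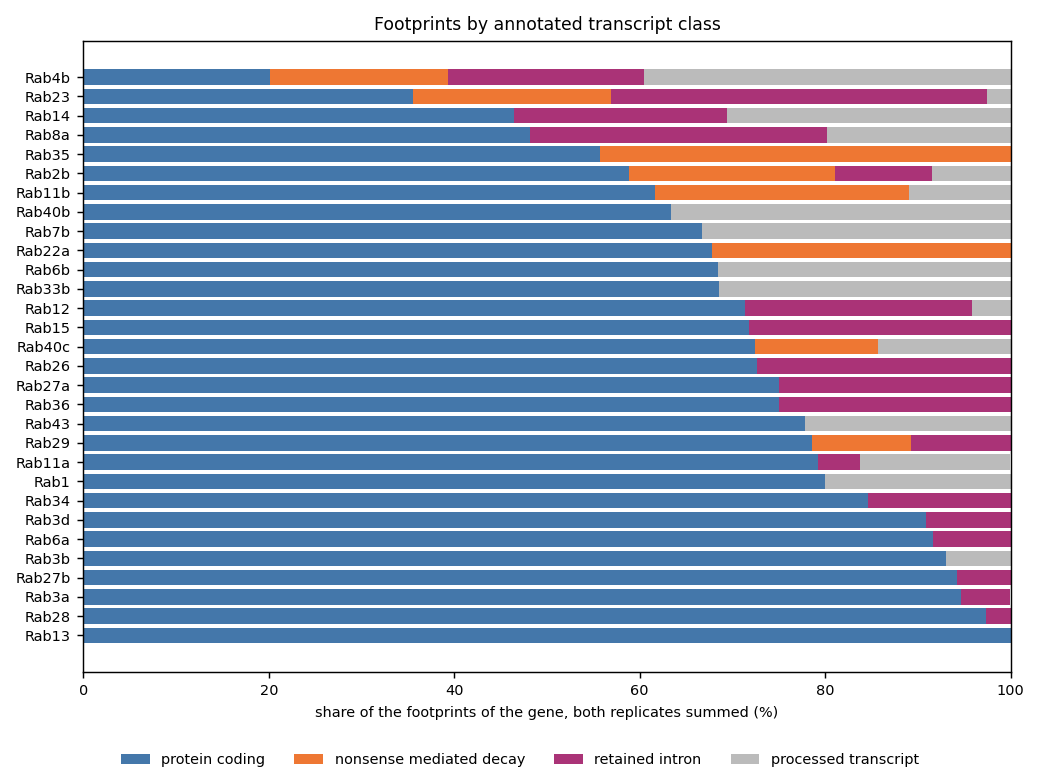
Share of the footprints of each gene by annotated transcript class, in percent of both replicates summed, for tested Rab genes that have a transcript outside the protein-coding class. Rab4b at 20.1% and Rab23 at 35.5% lie lowest for protein-coding transcripts, and Rab13 and Rab28 lie at or near 100%.

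Promoters of the family were examined for the CG dinucleotide, which is dense in the CpG islands of broadly active genes. Starts from RefSeq (GRCm38.p6) were matched by symbol or synonym for 48 of the 59 members. Members without a match included Rab2a and Rab18, at mean coding densities of 258 and 174, and they are not in this comparison. CG was counted in the 250 bases before each start, taking the richest start of a gene. CG reads the same on both strands. The median was 18 CG per window over these members and 6 over all 32851 starts, of which 37.8% had at least 10; among members 36 of 48 did. The 24 members with the higher coding densities had a median of 23 and the 24 lower ones 15, and Spearman's rho with coding density was 0.43, a description across genes. Taken start by start, as in the whole table, the 60 starts of members had a median of 15.0 and 41 of them had at least 10. The windows of the member with the highest and of that with the lowest coding density above 0, among members with a single start, are shown to let the contrast be read, with CG in capitals. The Rab6a window at chr7:100607336-100607585, on the plus strand, held 24 CG, and the Rab17 window at chr1:90967668-90967917, on the minus strand, held 3.
Rab6a: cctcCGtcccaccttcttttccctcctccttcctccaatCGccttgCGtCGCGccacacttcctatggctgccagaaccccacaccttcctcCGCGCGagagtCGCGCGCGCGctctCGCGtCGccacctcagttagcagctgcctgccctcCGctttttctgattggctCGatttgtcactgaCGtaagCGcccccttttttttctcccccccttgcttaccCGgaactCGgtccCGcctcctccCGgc
Rab17: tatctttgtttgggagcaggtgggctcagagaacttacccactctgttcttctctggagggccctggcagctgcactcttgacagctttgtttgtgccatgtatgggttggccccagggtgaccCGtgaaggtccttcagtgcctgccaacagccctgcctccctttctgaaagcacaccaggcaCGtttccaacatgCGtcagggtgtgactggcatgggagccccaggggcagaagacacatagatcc
The pattern was not uniform, since Rab3b, Rab3c and Rab11b, at mean coding densities of 223, 171 and 356, had 6, 7 and 9 CG, while Rab39, at 2.27, had 18.

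Genes whose products load, recycle and read Rabs covered a wide range of coding densities. The list of Rab cycle genes held 104 genes, all found in the table and none without a footprint. Gdi2, which extracts Rabs from membranes, had a coding density of 227 in replicate 1 and 174 in replicate 2. The escort proteins Chm and Chml had 13.7 and 22.7, and 5.74 and 5.30, and Rabggtb and Rabggta, the subunits of the transferase, had 59.3 and 82.7, and 49.0 and 52.1.

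The 8 chaperone and prenylation genes had a median coding density of 67.7, close to the 65.9 of the Rabs. Exchange factors had a median of 10.3 over 30 genes, GTPase-activating proteins 19.7 over 32 and effectors 20.7 over 31. Madd, the exchange factor for Rab3 and Rab27, was highest of its class at 43.7 and 48.8. Among effectors Rph3a, the Rab3 and Rab27 partner rabphilin, had 97.1 and 109, and Rims1, the active zone partner of Rab3, had 29.1 and 37.7. Tbc1d24, in which mutations cause epilepsy in humans, was highest among the genes listed as GTPase-activating, at 103 and 119. Evi5l was next in that list at 74.1 and 74.4. Myo5a, the motor that carries Rab-marked vesicles, had 55.6 and 73.5. Lrrk2, the kinase that phosphorylates Rabs, had 15 and 65 footprints, or 1.06 and 1.63, and the opposing phosphatase Ppm1h had 46.9 and 53.7. A coding density depends on how much mRNA of a gene the polysomes held and how many ribosomes it carried, and these cannot be told apart here.

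**Figure D4:**
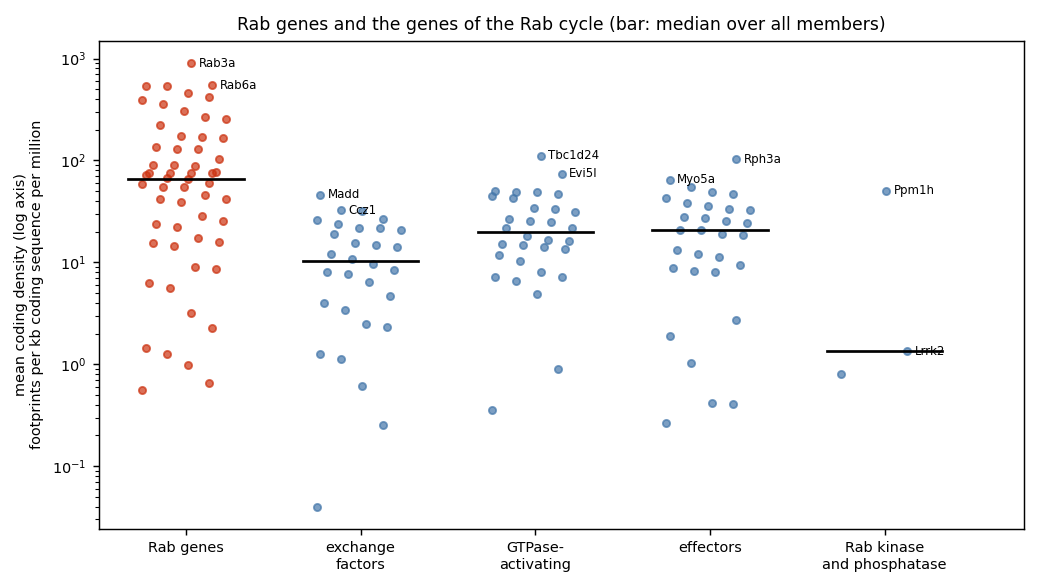
Mean coding density of the Rab genes with at least 1 footprint and of exchange factors, GTPase-activating proteins, effectors and Rab kinase and phosphatase genes, on a log axis; each point is a gene, bars are medians over all members of a class, and the 2 highest genes are named. The medians of exchange factors, GTPase-activating proteins and effectors are 10.3, 19.7 and 20.7, below the 65.9 of the Rab genes, while the chaperone and prenylation class, which is not drawn, had a median of 67.7.

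Other small GTPase families gave a scale for these levels. The 6 Arf genes had a median coding density of 417, led by Arf3 at 564, and the 13 Ras, Rap and Ral genes a median of 113, led by Rala at 158. No test was made between families.

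The replicate libraries were then compared gene by gene, to show which Rab levels differ by more than counting noise between 2 brains of the same genotype. Rab levels on the log2 scale correlated between the libraries across the 50 members past the count minimum, with Pearson's r of 0.979, against 0.969 over all coding genes past that minimum. Both are descriptions across genes. Log2 ratios of replicate 2 over replicate 1, on TMM (trimmed mean of M values) effective library sizes, had a median of -0.15 over these members and 0.01 over all 16427 genes tested. The median size of the ratio, regardless of sign, was 0.24 for members and 0.29 for all genes.

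An exact binomial test with Benjamini-Hochberg adjustment over all genes called 13 of the 50 members at an adjusted p under 0.05, where 17.4% of all genes tested were called. All 13 were lower in replicate 2 under TMM, where 11.5% of all genes were called lower and 5.95% higher. The direction rested on the scaling, and not every setting with TMM was one-sided. Beside members called lower, Rab30 and Rab8a were called higher at a minimum mean count of 100. Rab30 was called higher with the highest transcript alone. With library totals, which move every log2 ratio up by 0.13, 9 of the 13 were called lower and 7 other members higher, namely Rab11a, Rab26, Rab2b, Rab30, Rab34, Rab8a and Rab9. At that setting 19.0% of all genes were called, 11.5% higher and 7.47% lower. Only counting noise enters this test of 1 library against another, and 21 of the 50 members had an unadjusted p under 0.05. The share of all genes under that unadjusted limit is not given here, so this count allows no comparison of Rabs with other genes. When the spread between the libraries was estimated over all genes instead, with the exact test of edgeR and a common dispersion, 0 members were called and 0 had an unadjusted p under 0.05, and 11 of all genes were called, or 0.0670%.

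No called member changed 2-fold. Rab31 had the lowest ratio among them, at -0.73, from 120 footprints in replicate 1 and 222 in replicate 2, and an adjusted p of 2.17e-04 (exact binomial test). Rab24 followed at -0.64 with 102 and 200, Rab6b at -0.63 with 635 and 1260, and Rab10 at -0.63 with 403 and 799. Rab6b had an adjusted p of 1.70e-16 (exact binomial test), the lowest among the members. Rab1b had -0.54, Rab33a -0.54, Rab3c -0.48, Rab18 -0.45, Rab7 -0.38, Rab5a -0.35, Rab2a -0.35 and Rab6a -0.31. Rab3a had -0.17 with an adjusted p of 0.00701, and on library totals its ratio was -0.04 and no longer called, as were those of Rab2a, Rab5a and Rab33a.

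Calls gathered among members with high levels, where counts are large. Of 15 members above a coding density of 150, 9 were called, beside 58.1% of the 1337 coding genes in that range. Between 50 and 150, 4 of 19 members were called, beside 30.9% of 2613 genes, and below 50 none of 16 was, beside 11.3% of 9367 genes. The limits of 50 and 150 were chosen after the values were seen. Spearman's rho between log2 ratio and coding density was -0.31 over members and -0.26 over all coding genes tested, as a description across genes that share the same 2 libraries. Median ratios above 150 were -0.31 for members and -0.26 for all coding genes.

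Removing that trend, an alternative chosen after the data were seen, turned Rab3a to 0.31 and Rab6a to 0.07, and brought Rab7 to 0.00. In that setting 12 members were called, 6 higher (Rab1, Rab11a, Rab11b, Rab14, Rab3a and Rab8a) and 6 lower (Rab10, Rab1b, Rab24, Rab31, Rab33a and Rab6b), beside 19.1% of the coding genes tested, 9.30% higher and 9.79% lower. Rab10, Rab1b, Rab24, Rab31 and Rab6b were thus called lower under TMM, under library totals and with the trend removed. Markers of several cell types also differed between the libraries. All 5 neuronal markers were called lower in replicate 2 under TMM, with log2 ratios from -0.20 for Syt1 to -0.99 for Tubb3. So were Ttr of the choroid plexus at -1.20, Cldn5 of endothelium at -0.91, C1qa of microglia at -0.64, and Hbb-bs and Hba-a1 of red cells at -0.69 and -0.59. The other markers of these 4 cell types were not called. Folr1 of the choroid plexus had 0.40, Flt1 and Pecam1 of endothelium 0.43 and -0.07, and Alas2 of red cells 0.54. Csf1r and Cx3cr1 of microglia had -0.08 and -0.29. Mbp of oligodendrocytes was called higher at 0.70, and 0 of 4 astrocyte markers were called. The part of these cell types in the Rab ratios was not tested.

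**Figure D5:**
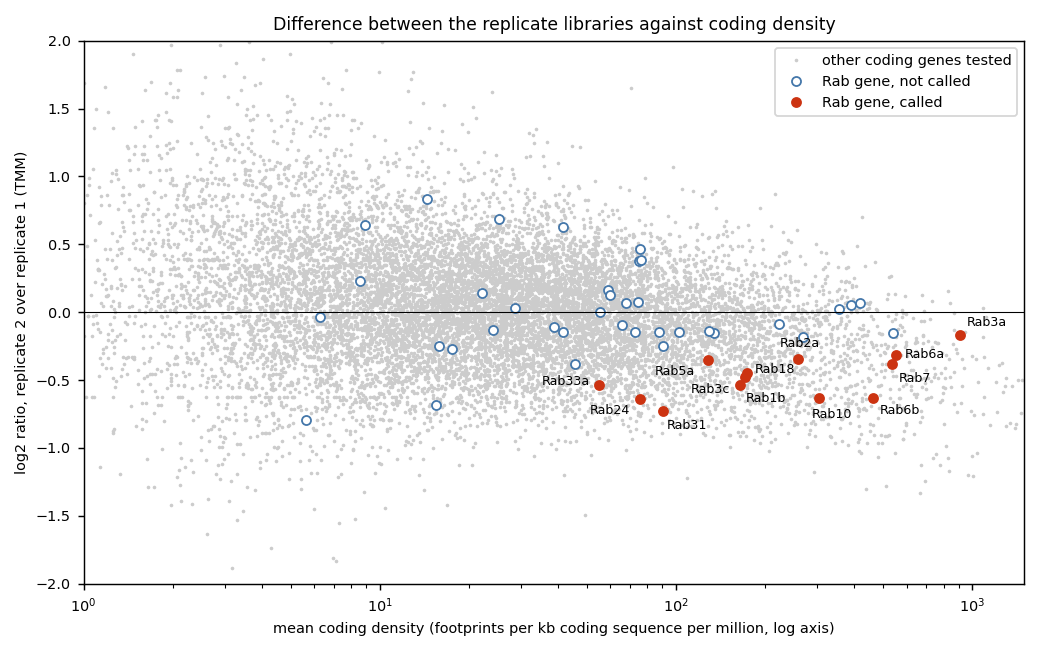
Log2 ratio of replicate 2 over replicate 1 with TMM scaling against mean coding density on a log axis, for the tested coding genes (grey) and the 50 tested Rab genes (blue open, not called; red, called); 162 coding genes and no Rab gene lie outside the axes. The 13 called Rab genes lie below 0 and, with TMM, between -0.73 and -0.17; with library totals only 9 of them are called lower.

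Calls by compartment were spread as follows under TMM. The endoplasmic reticulum and Golgi group had 6 of 11 members called, all lower, with a median log2 ratio of -0.35, where 11.5% of all genes were called lower; 5 of the 6 had a coding density above 150, where 58.1% of coding genes were called. Early endosome Rabs had 2 of 6, regulated secretion 2 of 7, and late endosome, exocytosis and ungrouped members 1 each of 4, 8 and 6. None of the 7 recycling members tested was called, and their median was 0.02. Whether groups differ was not tested. Of the 94 Rab cycle genes tested, 18 were called, 7 higher and 11 lower under TMM, where 17.4% of all genes were called; these are 1 of 8 chaperone and prenylation genes higher and 4 lower, 2 and 3 of 30 GTPase-activating genes, 4 and 2 of 27 effectors, and 0 and 2 of 26 exchange factors. Rabac1, a prenylated Rab acceptor, had -0.91 with counts of 390 and 635, and Gdi2 had -0.51 with 566 and 1223, and both were called.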

How the data were processed

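Footprints of 2 control brains were analysed, per the labels in 1 group. The authors deposited raw counts per transcript for both replicates with transcript class, length and coding length. Trimmomatic 0.36, Bowtie2 2.2.6, SAMtools and GRCm38.p4 are named in the submitters' processing notes; the annotation release and the treatment of multiply matching fragments are not given in the sources used here. Matched RNA was not analysed here, so values are footprint levels, not translational efficiency.

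Counts were summed per gene identifier. With 1 group no contrast between conditions exists and edgeR's quasi-likelihood test could not be fitted. Replicate 2 was compared with replicate 1 by a two-sided exact binomial test per gene (scipy 1.17.1) at TMM effective library sizes (edgeR 4.0.16, R 4.3.3, factors 0.957 and 1.04), over the 16427 genes whose counts averaged 10 or more. P-values were Benjamini-Hochberg adjusted over all of them, with a threshold of 0.05. Log2 ratios used a prior of 0.5 CPM. DESeq2 1.42.0 size factors, library totals, other count minimums, other transcript choices, the exact test of edgeR, and removal of a lowess trend (statsmodels 0.14.6) were alternatives. The binomial step was tested on simulated data. Coding density has Clopper-Pearson 95% intervals. Nothing was left out of library totals in the main setting. Where only protein-coding or only the highest transcripts were counted, values were scaled to the total on those transcripts.

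Named genes were every member of a subfamily, the 10 highest and 5 lowest by coding density and every called member; other members are given by range or in a clause with their compartment. Members and lists were chosen with earlier results of these data known. CG dinucleotides were counted in RefSeq windows of GRCm38.p6 matched by symbol or synonym. Values of some listed genes are not reported here.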

Additional observations from a re-analysis of the deposited data

How the results depend on the processing

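The number of members called stayed within 1.5 times of 13 with library totals, DESeq2 size factors, other count minimums, other transcript choices and the trend removed. It was 0 in the exact test of edgeR, which takes the spread over all genes as error. The number tested changed, with 12 of 57 called at a minimum mean count of 1 and 15 of 35 at 100. Shares of all genes at these minimums are not given here. Like totals did not mean like members or directions. With library totals 16 were called, 7 of them higher, and 9 were shared with the main setting. With the trend removed 12 were called, 6 of them higher, and 7 were shared. The median log2 ratio of members, -0.15 with TMM, was -0.02 with library totals, -0.07 with protein-coding transcripts alone, -0.09 with the highest transcript alone and 0.00 with the trend removed. With the trend removed Rab3a turned to 0.31 and Rab6a to 0.07; the trend was fitted over all coding genes, and the cause was not tested. With protein-coding transcripts alone the share of footprints on Rabs was 0.558%, the median coding density 59.3 and the share of the 5 leading members 40.6%. The 0.558% and the 59.3 are scaled to the total on protein-coding transcripts, so they have another denominator than the main values. Per transcript length in place of coding length the median was 11.9. Leaving out either replicate gave shares of 0.485% to 0.512%, medians of 61.7 to 65.2 and leading shares of 37.8% to 38.0%. Rab3a was highest under all 5 alternatives for coding density, which shared 8 to 10 of the 10 highest members. All 5 summed the transcripts of a gene. Taken singly, the highest Rab3a transcript had 258 and 668 footprints. That of Rab6b had 439 and 859, and that of Rab10 403 and 799. Their coding lengths were 663, 627 and 603 nucleotides. The lead of Rab3a thus holds for gene sums, and how shared fragments were assigned is not given in the sources used here. No paired analysis was possible because there is a single group and no second condition. Depth limits the 9 members with a mean count under 10, whose levels have wide counting intervals.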

Other observations

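Genes with Rab-like names outside the family rule also had footprints. The pseudogene Rab11b-ps2 had 117 footprints in replicate 1 and 306 in replicate 2, or 62.7 and 58.2 CPM, and Rab9b-ps1 had 7 and 33. The antisense genes Rab10os and Rab26os had 35 and 85, and 10 and 22. The Rab-like genes Rabl6, Rabl2 and Rabl3 had 94 and 277, 41 and 132, and 21 and 88. Whether strand was used in counting is not given in the sources used here, and fragments shared with Rab11b, Rab9b, Rab10 and Rab26 were not tested.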
